A study of Rattus norvegicus with 8 samples.

Results

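The genes described here are the integrin and laminin genes of the rat hypothalamus, compared between females and males. They were chosen by name, as every gene on the array called Itga, Itgb, Lama, Lamb or Lamc with a number or letter after the stem, without Itgam. The names gave 35 genes on 41 probes, of which 28 genes on 32 probes were bright enough to be tested, among 14613 named genes tested in all. Of the 35 genes, 22 encode integrin subunits and 10 encode laminin chains. The other 3, Itgb1bp1, Itgb1bp2 and Itgb3bp, encode no subunit and were caught by the stem of their names. Total RNA came from the hypothalamus of Sprague Dawley rats aged 3 to 4 months, 4 females in estrus and 4 males, kept under the same light cycle with free food and water. The slide had 4 two-colour arrays, and female and male samples of the same number were hybridised together on the array of that number. The dye Cy3 labelled the female sample on arrays 1 and 3 and the male sample on arrays 2 and 4, and Cy5 labelled the other. The study asked how the sexes differ in the genes of the cytoskeleton. The labels do not say whether a sample is 1 rat or a pool, so the p-values measure the spread between these samples.

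Integrins are cell surface receptors made of an alpha and a beta chain. The alpha chain largely sets the ligand, such as collagen, laminin, or proteins with an arginine-glycine-aspartate (RGD) stretch, and the beta chain links the receptor to talin and actin inside the cell. Laminins are trimers of an alpha, a beta and a gamma chain that form the sheet of every basement membrane. In the brain those sheets lie around blood vessels and under the meninges, and several integrins of blood cells are found on microglia.

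Each gene was read by probes 60 bases long, and the sequences below are those of the array, 5′ to 3′. The first 4 show what subunits have in common inside the cell. Capitals mark codons that spell the glycine-phenylalanine-phenylalanine-lysine motif next to the membrane in alpha chains (Itga1, Itgal). In the beta chains Itgb7 and Itgb3 they mark an asparagine-proline-any-tyrosine motif of the tail, to which talin binds.
Itga1: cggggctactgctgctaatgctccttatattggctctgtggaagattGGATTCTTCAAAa
Itgal: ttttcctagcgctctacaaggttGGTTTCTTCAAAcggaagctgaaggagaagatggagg
Itgb7: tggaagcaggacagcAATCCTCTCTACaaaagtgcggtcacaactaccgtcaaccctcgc
Itgb3: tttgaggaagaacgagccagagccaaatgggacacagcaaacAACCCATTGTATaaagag
The other probes, shown because the results on single genes turn on them, hold neither motif.
Lama5: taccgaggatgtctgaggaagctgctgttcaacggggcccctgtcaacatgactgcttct
Lamb2: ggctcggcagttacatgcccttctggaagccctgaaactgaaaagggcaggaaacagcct
Lamb1: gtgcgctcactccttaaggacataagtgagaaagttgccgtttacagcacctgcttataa
Itgb5: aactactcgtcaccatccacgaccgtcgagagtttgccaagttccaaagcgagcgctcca

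Both motifs were searched on both strands, and a match is a description of the letters only. The alpha motif was in 12 of the 30367 probes of the array (0.0395%) as printed and in 8 (0.0263%) on the reverse strand. The beta motif was in 76 probes (0.25%) as printed and in 56 (0.184%) on the reverse strand. Among the 41 member probes, 2 held the alpha motif and 2 the beta motif, all as printed. On the rn4 build the array files place the Itga1 probe at chr2:47107893-47112038 on the minus strand, the Itgal probe at chr1:186594579-186597988 on the plus strand, and the Itgb7 probe at chr7:140971597-140971780 on the minus strand. These stretches are longer than a probe, as for 11 of the 41, whose bases are split over more than 1 piece of the genome. The Lama5 probe lies at chr3:169234188-169234247 (minus), the Lamb1 probe at chr6:49182887-49182946 (plus) and the Itgb5 probe at chr11:68644285-68644344 (minus). The files place the Lamb2 probe at bases 1230338 to 1230397 of chr16_random, a stretch not ordered on its chromosome, on the plus strand, and give the Itgb3 probe no position. Exon and UTR annotation of that build was not used here. Median GC content was 45% in the member probes and 45% in all 21995 probes tested.

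Levels are normalized log2 intensities of a sample in its own dye, and differences are log2 ratios of female over male fitted to the 4 arrays with limma, with a term for dye, given ± standard error. A gene stands for its brightest probe. Median signal above background was 502 to 530 intensity units in Cy3 samples and 148 to 272 in Cy5 samples, 0 spots were saturated, and the number of arrays limits precision. Male 2 stood apart in tissue markers before any sex comparison. Relative to each gene's mean over the 8 samples, with the dye effect removed, its median over 18 hypothalamic genes such as Avp and Oxt was -1.81 on the log2 scale, against -0.04 to 0.64 in the other 7 samples. Its median over 11 genes of cortex, hippocampus and striatum was 1.25, against -0.54 to 0.37. The 0.37 was that of female 2, on the same array, and female 4 came next at -0.12. Of the hypothalamic genes, 16 of 18 were well above background in all 8 samples, although in male 2 their levels and those of neighbouring regions go against the tissue label. The log2 of their summed level ran from 18.11 to 18.43 in females and from 15.57 to 18.31 in males. Results for members with values per sample are therefore given with and without array 2, which carried female 2 and male 2. Without it, array 4 is the only one with the female in Cy5. The standard errors of that fit then rest on the spread between arrays 1 and 3. Male 4 stood apart in 9 genes of the choroid plexus, with a median of 0.34, against -0.17 to 0.07 in the other samples. Summed levels (log2) of choroid plexus genes ran from 12.13 to 12.90 in females and from 12.30 to 16.54 in males. Fewer cells of a type and less RNA per cell cannot be told apart in such tissue samples.

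No integrin or laminin gene passed the test between the sexes. In limma, 0 of 28 genes had an adjusted p under 0.05 (0% of all named genes) and 0 of 28 had an unadjusted p under 0.05, where 8.51% of all 14613 named genes did, 5% higher in females and 3.51% lower. That split was 731 to 513 genes here and 244 to 532 with median centring. With a difference of at least 1.5-fold as well, 0 of 28 members and 0.903% of all named genes passed. The same held for the 32 probes, with 0 past either threshold against 8.5% of all probes at the unadjusted one. The lowest unadjusted p among the genes was 0.0532 (Lamb2) and the lowest adjusted p 0.555 (limma). Fitted ratios ran from -0.10 (Lama3) to 0.37 (Lama5), 18 above 0 and 10 below. Their median was 0.04, against 0.02 over all named genes, and 64.3% lay above 0, against 56.2% of all named genes. When the authors' value table was used, 8 of 18 members lay above 0, and the medians were -0.042 over members and -0.067 over all named genes, so both medians were lower there. The 95% interval of the ratio lay inside 1.5-fold in either direction for 24 of 28 genes and inside 2-fold for 28 of 28. Over all named genes these shares were 81.1% and 94.8%. The intervals that reached past 1.5-fold were those of Lama5, Lamb2, Itgb4 and Itgb3bp. All intervals hold for this processing only. With the scanner's log ratio, Itga10 was at 0.58, Itgav at -0.92 and Lama3 at -0.33. Each lay outside its interval here, which ended at 0.26, -0.24 and -0.29 on that side. The rest of the 11 genes given values per sample by rule stayed inside theirs. Levels of the sexes overlapped in 28 of 28 genes, and 2.63% of all named genes had levels that did not overlap.

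**Figure D1:**
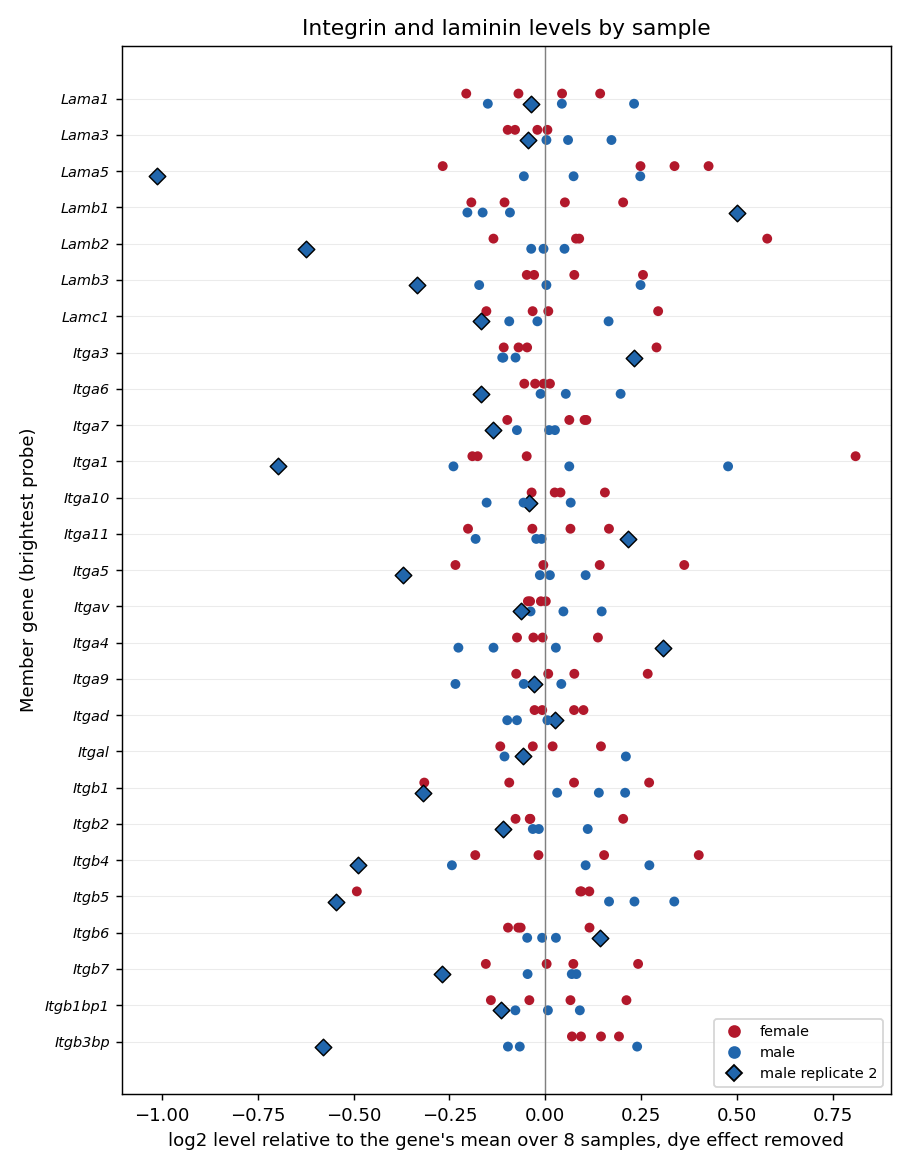
Points give the log2 level of 27 member genes (rows) in 4 female (red) and 4 male (blue) samples, relative to the gene's mean over 8 samples with the dye effect removed. Male 2 (diamond) is the lowest of 8 in 15 genes and the highest in 4, and females and males overlap in the levels of every gene shown.

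Laminin alpha chains define each trimer. Lama5, the alpha chain of vascular laminin-511, had the largest fitted ratio of the members. Its levels were 10.31, 9.81, 10.22 and 10.33 in females 1 to 4 and 10.02, 8.87, 10.15 and 10.13 in males 1 to 4. Male 2 was lowest by far and 3 females lay above every male, while female 2 lay below males 1, 3 and 4. The ratios on arrays 1 to 4 were 0.29, 0.94, 0.07 and 0.19, all above 0, and the fit gave 0.37 ± 0.15 (1.29-fold; limma, adjusted p = 0.555), with a 95% interval from -0.02 to 0.77. Without array 2 the ratio was 0.19 ± 0.08 (limma, adjusted p = 0.602).

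Lama3, the alpha chain of the epithelial laminin-332, was the member with ratios below 0 on all 4 arrays. Its levels were 7.10, 7.03, 7.12 and 7.05 in females and 7.30, 7.07, 7.13 and 7.18 in males. The ranges overlapped between 7.07 and 7.12, and the ratio was -0.10 ± 0.07 (limma, adjusted p = 0.612), or -0.12 ± 0.08 without array 2. Lama3 and Lama5 were 2 of 28 members with 1 sign on all arrays, against 10.5% of all named genes. Lama1, a chain of early embryonic laminin, had a ratio of -0.04 ± 0.09. Lama4, the other vascular alpha chain, was well above background in 0 of 8 samples and was not tested. The median ratio of the 3 alpha chains tested was -0.04.

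Among the beta chains, Lamb2, a chain of vessel and synapse laminins, came closest to the threshold. Its levels were 11.15, 10.15, 10.65 and 10.37 in females and 10.34, 9.95, 10.28 and 10.54 in males. Female 1 was highest and male 2 lowest, and the other samples of the sexes were mixed. Array ratios were 0.82, 0.20, 0.37 and -0.16, and the fit gave 0.31 ± 0.12 (1.24-fold; limma, adjusted p = 0.555). Its 95% interval ran from -0.0067 to 0.62, and without array 2 the ratio was 0.22 ± 0.12 (limma, adjusted p = 0.628).

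Lamb1, the beta chain of the most widespread laminins, is described because of male 2 and was chosen after its values were seen. Its levels were 10.94, 10.63, 10.86 and 10.48 in females and 10.26, 11.55, 10.33 and 10.84 in males. Here male 2 was the highest of 8, the opposite of its place for Lama5 and Lamb2. In these own-dye levels male 4 lay within the female range, and males 1 and 3, both in Cy5, below it. Once the dye effect was removed, the females ran from -0.193 to 0.204 relative to the gene's mean. Males 1 and 3 were then within that range, at -0.163 and -0.092, and male 4 just below, at -0.203. The ratio was -0.02 ± 0.12 with array 2 and 0.12 ± 0.08 without it. Lamb3, the beta chain of laminin-332, had a ratio of 0.13 ± 0.13. The median over the 3 beta chains was 0.13.

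The gamma chain Lamc1, shared by most laminins, was measured by 2 probes at different positions of the gene that differed in sign. The brighter gave 11.42, 11.25, 11.09 and 11.09 in females and 11.41, 10.95, 11.22 and 11.03 in males. The sexes overlapped over most of their range, and the ratio was 0.06 ± 0.08 (limma, adjusted p = 0.751), with -0.00062 ± 0.08 without array 2 and -0.046 in the authors' value table. The dimmer probe gave -0.04 ± 0.07. Neither of the Lamc3 probes passed the filter, with at most 2 samples of each sex well above background. Over the 8 laminin chains tested, 4 ratios were above 0 and 4 below, with a median of 0.02.

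**Figure D2:**
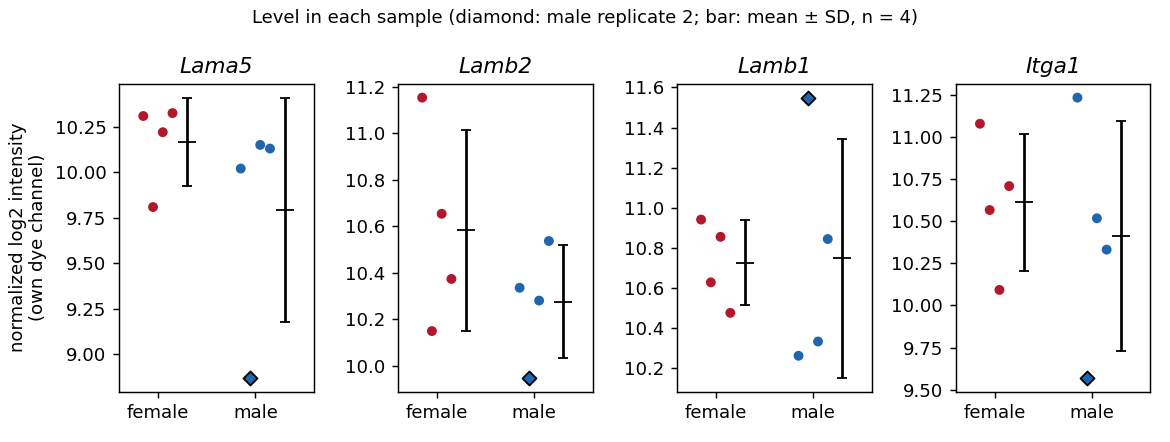
Points are the normalized log2 intensities (vertical axes, 1 per gene) of Lama5, Lamb2, Lamb1 and Itga1 in 4 female and 4 male samples, with the mean ± SD of each sex. Male 2 (diamond) is the lowest sample for Lama5, Lamb2 and Itga1 and the highest for Lamb1.

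Of the laminin-binding alpha chains, Itga7, the receptor chain of muscle cells, had the smallest p. Its levels were 9.11, 8.70, 9.10 and 8.86 in females and 8.81, 8.86, 8.83 and 8.93 in males. Females 1 and 3, both in Cy3, lay above all males, and females 2 and 4, both in Cy5, lay below or among them. The ratio was 0.09 ± 0.06 (limma, adjusted p = 0.609), with 0.11 ± 0.07 without array 2 and -0.049 in the authors' value table. Itga6, the alpha chain of endothelial laminin receptors, had a ratio of -0.04 ± 0.08. Itga3 had 0.03 ± 0.06 and was well above background in 4 females but only 2 males.

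The collagen-binding alpha chains gave a median ratio of 0.09 over 3 genes tested. Itga1, found on smooth muscle and capillary endothelium, had the widest range of levels among the members and was chosen for that after its values were seen. Its levels were 11.08, 10.57, 10.09 and 10.71 in females and 11.23, 9.57, 10.52 and 10.33 in males. In these own-dye levels male 1 was highest and male 2 lowest, so the male samples spanned those of the females. Once the dye effect was removed, female 1 was highest, at 0.81 relative to the gene's mean, against 0.48 in male 1. With the dye effect removed the 8 samples spread over 1.51 on the log2 scale, and 5.13% of all named genes spread more widely. The ratio was 0.20 ± 0.13 (limma, adjusted p = 0.591), and 0.04 ± 0.09 without array 2.

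Itga10, a collagen receptor chain best known from cartilage, was read by 2 probes of opposite sign. The brighter gave 7.14, 7.13, 7.03 and 7.07 in females and 7.17, 6.95, 7.05 and 6.84 in males. In these own-dye levels the female range lay within the male range. Once the dye effect was removed, female 1 was highest, at 0.16 relative to the gene's mean, against 0.07 in male 1, the highest male. The ratio of the brighter probe was 0.09 ± 0.06 (limma, adjusted p = 0.591), or 0.11 ± 0.07 without array 2. That of the dimmer probe was -0.03 ± 0.06. At the brighter probe the ratio was 0.29 without background correction and 0.58 with the scanner's log ratio. Itga11, another collagen receptor chain, had a ratio of -0.0011 ± 0.10. Itga2, the platelet collagen receptor chain, was well above background in 1 female and 2 males and was not tested.

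The RGD-binding chains tested were Itga5, which pairs with Itgb1 as the fibronectin receptor, and Itgav, which pairs with several beta chains to bind vitronectin and latent TGF-beta. Itga5 had a ratio of 0.13 ± 0.10. Itgav levels were 6.82, 6.78, 6.82 and 6.77 in females and 6.74, 6.80, 6.83 and 7.01 in males. Male 4 was highest and the other 7 samples lay between 6.74 and 6.83. Its ratio was -0.05 ± 0.07 (limma, adjusted p = 0.788), at a probe well above background in only 2 females. It was -0.10 ± 0.07 without array 2 and -0.92 with the scanner's log ratio.

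Ratios of the 4 tested alpha chains of leukocytes and of the alpha4-alpha9 group were above 0, with a median of 0.04. Itga9, a receptor chain for tenascin and osteopontin, had 9.44, 8.75, 9.37 and 9.10 in females and 8.60, 9.33, 8.87 and 9.30 in males. The 4 samples in Cy3, females 1 and 3 and males 2 and 4, were the 4 highest. The array ratios were 0.84, -0.58, 0.50 and -0.21, and the fit gave 0.14 ± 0.11 (limma, adjusted p = 0.618), with 0.23 ± 0.10 without array 2 and -0.038 in the authors' value table. Itgal, the alpha chain of the lymphocyte receptor LFA-1, had 0.0079 ± 0.07, Itgad had 0.07 ± 0.07 and Itga4 had 0.01 ± 0.09. Itgae, found on lymphocytes of epithelia, was well above background in 2 samples of each sex and was not tested.

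The 6 beta chains tested had a median ratio of -0.0038, 3 above 0 and 3 below. Itgb5, which pairs with Itgav to bind vitronectin, was read by 2 probes that moved apart. At the brighter probe levels were 11.71, 11.09, 11.73 and 11.67 in females and 11.75, 11.06, 11.81 and 11.95 in males. Female 2 and male 2, on the same array, were the 2 lowest, and the others lay between 11.67 and 11.95. The ratio was -0.09 ± 0.08 (limma, adjusted p = 0.638), and -0.17 ± 0.07 without array 2, where its adjusted p of 0.599 (limma) was the lowest of the members. At the dimmer probe male 2 was the lowest, at 10.21, and female 2 lay at 10.94, among the other females. The ratio there was 0.14 ± 0.09 (limma, adjusted p = 0.590).

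Itgb6, the epithelial activator of latent TGF-beta, had 8.06, 8.08, 8.05 and 8.29 in females and 8.20, 8.26, 8.13 and 8.11 in males. In these own-dye levels female 4 was highest and the other females lay below all males. Once the dye effect was removed, male 2 was highest, at 0.14 relative to the gene's mean, and female 4 next, at 0.12. The ratio was -0.06 ± 0.09 (limma, adjusted p = 0.784), and 0.03 ± 0.07 without array 2. The shared beta chain Itgb1, partner of most alpha chains, had a ratio of -0.03 ± 0.11 at its brighter probe and -0.0035 ± 0.09 at the other. Itgb4, the partner of Itga6 in hemidesmosomes, had 0.18 ± 0.17, and -0.06 ± 0.07 without array 2. Itgb2, the beta chain of leukocytes and microglia, had 0.02 ± 0.07, and Itgb7 of lymphocytes had 0.08 ± 0.07. Itgb3, the beta chain of platelets, was well above background in 1 of 8 samples and Itgb8, an astrocyte partner of Itgav, in 4 of 8. Neither was tested.

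Of the genes caught by name that encode no subunit, Itgb3bp, a protein of the centromere, had the larger ratio. Its levels were 10.62, 10.82, 10.57 and 10.84 in females and 10.68, 9.85, 10.65 and 10.66 in males. Male 2 was the lowest, and in these own-dye levels the other males lay within the female range. Once the dye effect was removed, females lay between 0.07 and 0.19 relative to the gene's mean. Males 1 and 3 were then below them, at -0.07 and -0.10, and male 4 above, at 0.24. The ratio was 0.25 ± 0.15 (limma, adjusted p = 0.574), and 0.05 ± 0.07 without array 2. Itgb1bp1, an inhibitor that binds the tail of the Itgb1 protein, had 0.05 ± 0.07, and Itgb1bp2, of striated muscle, was well above background in 1 sample of each sex and was not tested.

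**Figure D3:**
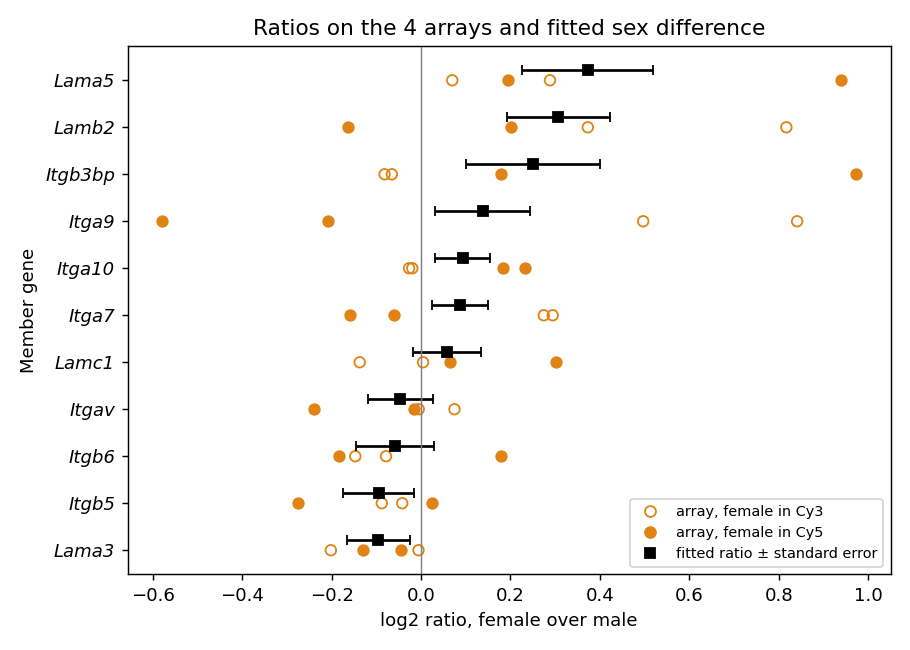
Circles are the log2 ratios of female over male on each of the 4 arrays for 11 member genes, open where the female carried Cy3 and filled where it carried Cy5, and squares are fitted ratios ± standard error. Lama5 lies above 0 and Lama3 below 0 on all 4 arrays, and the ratios of Itga9 separate by dye.

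Members followed the dye about as often as other genes on the array. In 13 of 28 genes the ratio had one sign on both arrays with females in Cy3 and the other sign on both arrays with females in Cy5, against 42% of all named genes. The dye term had an adjusted p under 0.05 (limma) in 2 of 28 members, against 13.2% of all named genes. They were Lamb1, with a dye effect of -0.62 (brighter in Cy3; limma, adjusted p = 0.0445), and Itga9, with -0.53 (limma, adjusted p = 0.0498). The sex ratios of both were small beside these values, -0.02 and 0.14. The median standard error of the sex ratio was 0.08 in the members and 0.08 over all named genes.

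**Figure D4:**
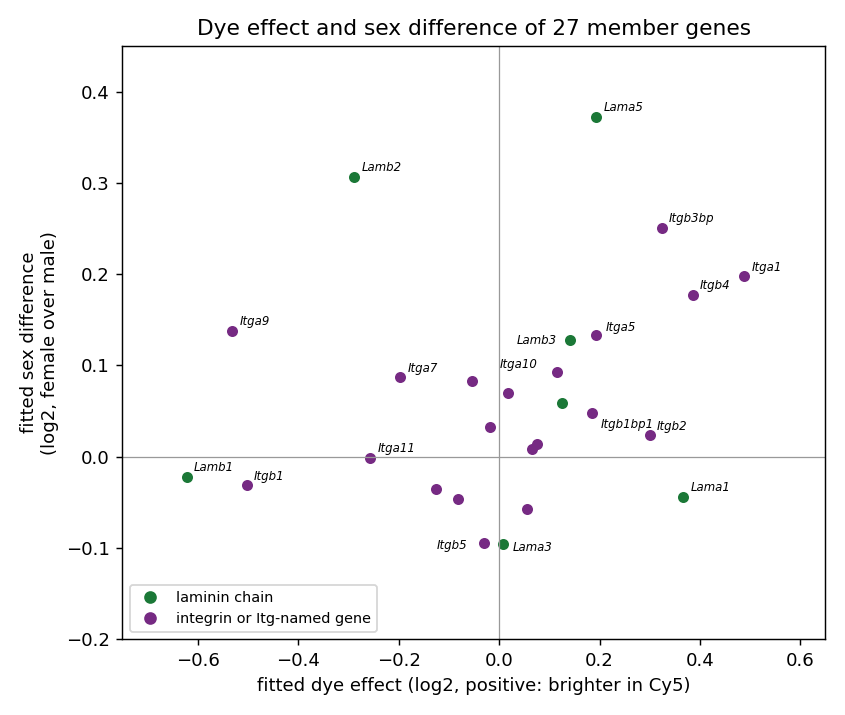
Each point is 1 of 27 member genes, with the fitted dye effect (log2, positive where Cy5 is brighter) on the horizontal axis and the fitted sex difference (log2, female over male) on the vertical axis. Lamb1, Itga9 and Itgb1 lie far to the left, at -0.62, -0.53 and -0.50, and Lama5 and Lamb2 have the highest sex differences.

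Single samples stood at the ends of the range for many members, here in levels with the dye effect removed. Male 2 was the lowest of the 8 samples for 15 of 28 members, where it was the lowest for 28.5% of all named genes. It was the highest for 4 of 28, Itga11, Itga4, Itgb6 and Lamb1, where it was the highest for 24.9% of all named genes. Female 1 was the highest for 11 of 28 members, among them Lama5, Lamb2, Lamb3, Lamc1 and Itga1, where it was the highest for 14.8% of all named genes. It was the lowest for 0 members and for 10.6% of all named genes. The 2 samples also stood at opposite ends for 13 markers of meningeal and perivascular fibroblasts, among them collagens and Dcn, all 13 well above background in all 8 samples. The median of that list was 1.18 in female 1 and -1.24 in male 2, against -0.26 to 0.34 in the other 6. The log2 of its summed level ran from 15.73 to 16.58 in females and from 13.97 to 16.79 in males. Over the 13 smooth muscle and pericyte markers female 1 was also highest, at 0.30, and female 2 and male 2 lowest, both at -0.32, with summed levels of 14.00 to 14.78 in females and 13.31 to 14.58 in males. Over the 14 markers of brain endothelium male 2 was at -0.16 and the others between -0.06 and 0.10, with summed levels of 14.76 to 14.89 in females and 14.53 to 15.02 in males. These ends were not particular to such cells. Female 1 was also highest and male 2 lowest for ependyma (0.46 and -0.57), astrocytes (0.24 and -0.20), microglia and macrophages (0.25 and -0.20) and hypothalamic genes (0.64 and -1.81). For oligodendrocyte markers and for genes of cortex, hippocampus and striatum male 2 was instead the highest (0.25 and 1.25). The part of any of these cell types in the integrin and laminin values was not tested.

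Integrins of blood cells were set beside markers of microglia and leukocytes. Of 15 microglia and macrophage markers 14 were well above background in all 8 samples and Mrc1 in 0. Of 16 markers of other leukocytes 15 were on the array, 7 of them well above background in all 8 samples and the B cell gene Ms4a1 in 0. Summed microglial levels (log2) were 15.75 to 15.98 in females and 15.71 to 15.92 in males, and those of other leukocytes 11.08 to 11.24 and 11.02 to 11.18. The leukocyte chains Itgb2, Itgal, Itgad, Itga4 and Itgb7 had ratios from 0.0079 to 0.08 between the same samples.

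**Figure D5:**
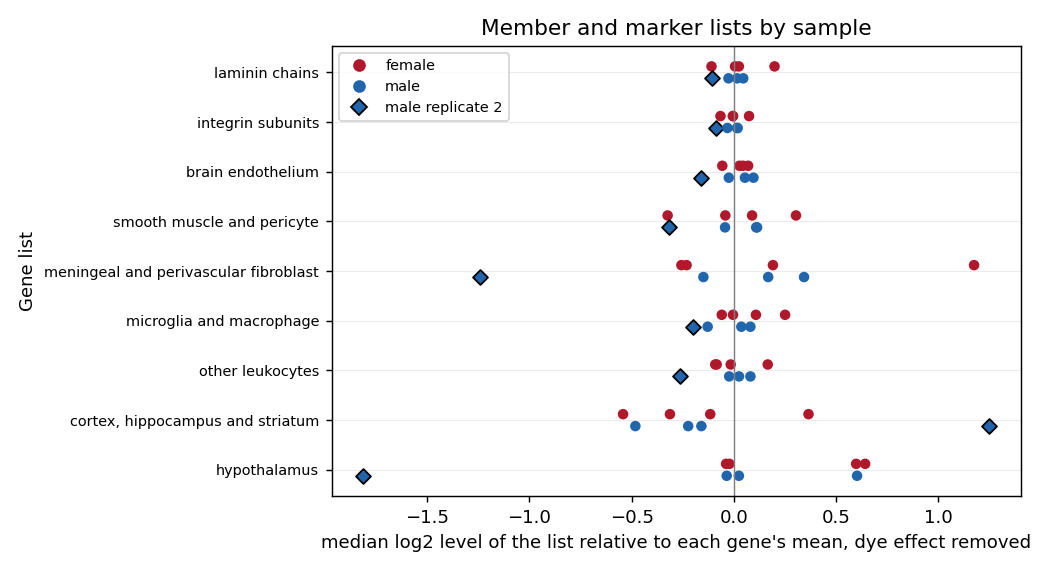
Points are medians over the genes of a list (rows) in 4 female (red) and 4 male (blue) samples, as log2 level relative to each gene's mean with the dye effect removed. Male 2 (diamond) lies at -1.81 for hypothalamic genes and 1.25 for genes of neighbouring brain regions. The medians of the integrins and of the laminins stay between -0.11 and 0.20 in all 8 samples. Single members, not shown here, ranged in male 2 from -1.01 (Lama5) to 0.50 (Lamb1).

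The calls on the members depended on which array was left out. Without array 2, 0 of 28 members had an unadjusted p under 0.05 (limma; 8.05% of all named genes). Without array 4, 5 of 28 had one, Itga1, Itgb3bp, Itgb4, Lama5 and Lamb2, all higher in females, where 31.1% of all named genes did. Adjusted p was then under 0.05 for Lama5, at a ratio of 0.56 ± 0.08 (limma, adjusted p = 0.0466), and for Itgb3bp, at 0.45 ± 0.07 (limma, adjusted p = 0.0480), and for 7.53% of all named genes. The cause was not tested. In that fit array 2 was the only one with the female in Cy5. Its standard errors and p-values therefore rest on the spread between arrays 1 and 3 and do not measure how far array 2 departs. Each fit without 1 array has this limit for the array left alone in its dye orientation. Without array 3 only Lamb2 passed the unadjusted threshold, where 1.99% of all named genes did, and without array 1 no member did, with a lowest p of 0.208. With all arrays but no background correction Itga10 passed the unadjusted threshold (7.13% of all named genes), and with the scanner's own log ratio Itga10 and Itga3 did (7.16%).

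Genes that work with integrins and laminins were taken from lists. Among 37 tested genes of focal adhesions and integrin activation, 2 were higher and 2 lower in females at an unadjusted p under 0.05 and 0 passed after adjustment (limma), where 8.51% of all named genes passed the unadjusted threshold, and the median ratio was -0.09. This count is near the background, as are the counts of the basement membrane genes. The smallest p-values were those of Tgfb1i1 (Hic-5, a paxillin relative of focal adhesions) at -0.47 ± 0.11, Lims2 (an ILK partner) at 0.29 ± 0.07 and Flna (filamin A, which ties beta tails to actin) at 0.52 ± 0.15. Tgfb1i1 lay below 0 on 4 of 4 arrays, and Lims2 and Flna above 0 on 4 of 4. Flna levels were 10.63, 9.38, 9.88 and 10.23 in females and 9.79, 8.71, 9.77 and 9.79 in males, with both samples of array 2 lowest.

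Among 27 tested genes of the basement membrane and of laminin partners, 2 were higher and 0 lower (background 5% and 3.51%), with a median of 0.04. They were Rpsa (a ribosomal protein also described as a laminin receptor) at 0.32 ± 0.10 and Col18a1 (the basement membrane collagen that yields endostatin) at 0.46 ± 0.16. Rpsa lay above 0 on 3 of 4 arrays and Col18a1 on 2 of 4, with male 2 the lowest for Col18a1. Smoc2, a calcium-binding matrix protein, was next at 0.14 ± 0.07 without passing. Without array 2 this list had 0 genes under the threshold. Among 26 tested genes for other integrin ligands, 4 were higher and 1 lower (background 5% and 3.51%), with a median of 0.08. Spp1 (osteopontin) had 0.54 ± 0.16, Adam9 (a membrane protease that binds integrins) -0.29 ± 0.09 and Icam1 (the ligand of LFA-1) 0.36 ± 0.11. Spp1 and Icam1 lay above 0 and Adam9 below 0 on 4 of 4 arrays, and none passed after adjustment (limma, adjusted p = 0.555 each).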

How the data were processed

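Per the submitters' processing notes, Agilent Feature Extraction 10.7.3.1 read the scans. Spot and local background signals are raw intensity values, per the file headers, and the software's own log ratio is a log10 value of Cy5 against Cy3. The authors deposited a table of log2 values, which equal median signal less median background minus a constant for each sample to within 0.01 in 100% of cases and have a median of 0 in all 8 columns.

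In limma 3.58.1 (R 4.3.3), mean signals were background-corrected (normexp, offset 50) and loess-normalized array by array, with control spots weighted 0, and levels were also scaled between arrays (Aquantile). Outlier spots were dropped and repeated spots averaged. Testing required that more than 0.5 of a probe's spots stood well above background in every sample of 1 sex, so a gene measured in 1 sex could enter: 5 of the 28 members did. The ratio of female over male was modelled with sex and dye terms, with Benjamini-Hochberg adjustment over 21995 probes and a threshold of 0.05, and a gene is its brightest probe. Samples of 1 number share an array, so the array is the block by construction of the ratio. The steps were tested on simulated data.

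The members and gene lists were chosen with earlier results of these data known. The values of 1 tested member are not reported here, though it is kept in the counts and medians. Names are those of the array files, and 27 of the 35 are the current symbol of the probe's accession. Values per sample are given for members with an unadjusted p under 0.05, or the 4 with the smallest p in a direction where fewer pass, and the 1 with the smallest p in each role group without one, which gave 11 genes. Up to 3 genes with the smallest p are named in each partner list. Alternatives changed the background correction (none, or offset 16), the values (median centring, the software's ratio, the deposited table), the model (without dye, without the array, trended robust prior), the filter (none, or all 8 channels), outlier spots, averaging of probes, a 1.5-fold limit, and the arrays left out. Plots were made with matplotlib 3.10.9 (Python 3.11.15).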

Additional observations from a re-analysis of the deposited data

Results flagged for a closer look

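In 9 of 56 sets of 4 samples (28 genes in each sex), 1 sample lay far from the other 3 by Dixon's test at 95%. Values are log2 levels relative to the gene's mean over 8 samples, with the dye effect removed. Chance alone marks about 1 in 20 such sets where they are independent. Here the sets share the same 8 samples and a dye effect fitted to the same arrays, so that rate is a rough guide. The share over all named genes was not computed, so the count cannot be read as particular to the members. Female 1 was far above the other females for Itga1, at 0.81 against -0.19 to -0.05. Female 2 was far below the others for Itgb5, at -0.491 against 0.09 to 0.12, and far above for Itga3, at 0.291 against -0.11 to -0.05. Female 3 was high for Itgb2, at 0.204 against -0.08 to -0.04, and female 4 for Itgb6, at 0.116 against -0.10 to -0.06. Male 2 was low for Lamb2, at -0.624 against -0.04 to 0.05, and high for Lamb1, at 0.502 against -0.20 to -0.09, and for Itga3, at 0.232 against -0.11 to -0.08. Male 3 was high for Itgal, at 0.211 against -0.11 to -0.06. Female 2 and male 2, both far from their sex for Itga3, shared array 2.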

How the results depend on the processing

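Results with an adjusted p under 0.05 numbered 0 among members under every alternative run but the fit without array 4. Member genes higher in females at an unadjusted p under 0.05 (0 in the fit reported) numbered 1 without background correction (Itga10), 2 with the scanner's log ratio (Itga10, Itga3) and 0 to 5 without 1 array, and member probes 1, 2 and 0 to 6. Members with an adjusted p under 0.05 numbered 0 to 2 without 1 array, as genes and as probes. Without the replicate block (the array) both counts of genes stayed at 0 and the median was 0.04. The authors' value table gave a median of -0.042 over members (-0.067 over all named genes, 0.02 in the fit reported), -0.083 for collagen-binding chains, 0.34 for RGD-binding chains, -0.16 for beta chains and 0.18 for laminin alpha chains. The collagen-binding median was 0.24 without background correction. With the scanner's log ratio the RGD-binding median was -0.25 and the laminin gamma median -0.13. Basement membrane genes under the unadjusted threshold (2) numbered 1 with median centring or without the replicate block, 0 with the scanner's ratio, the authors' table or no dye term, and 0 to 11 without 1 array. Other ligands (5) numbered 3 with median centring or no dye term, 2 with the scanner's ratio, the authors' table or no replicate block, and 0 to 10 without 1 array. Focal adhesion genes (4) numbered 2 without the replicate block and 2 to 20 without 1 array. The highest counts of the 3 lists, 11, 10 and 20, were those without array 4, where 31.1% of all named genes passed. Signs turned for Lamc1 (-0.016 with median centring, -0.046 in the authors' table, -0.00062 to 0.12 without 1 array), Itga7 (-0.049) and Itga9 (-0.038) in the authors' table, and Itgb5 with the mean of its probes (0.024). Without 1 array Itgb6 ran from -0.15 to 0.033 and Itgav from -0.10 to 0.0090. With the scanner's log ratio Itgav was at -0.92 and Itga10 at 0.58. The causes were not tested. Weak signal limits Itga3, Itgav, Itgal and Itgad, each well above background in fewer than 8 samples.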
